A study of Mus musculus with 2 samples.

Results

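Processed pseudogenes are copies of spliced messenger RNAs that were inserted back into the genome, and the CpG states at the copies on the mouse autosomes are described here. The members are the autosomal genes that GENCODE vM21 (build mm10) types as processed_pseudogene and that overlap no exon of a protein-coding gene. This rule kept 8795 of 8924 autosomal processed pseudogenes, out of 51229 autosomal genes of any type. Of these, 1913 lay within the span of a protein-coding gene (intronic) and 6882 overlapped none (intergenic). The choice used annotation alone and no measured value.

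The DNA was taken at 2 passages of E14, an established line of mouse embryonic stem cells (mESCs), grown on gelatin with serum and LIF, a cytokine that keeps such cells from differentiating. Both passages carry no added allele or agent, and they form 1 group with 2 replicates. SCoTCH-seq reads unmodified cytosine (C), 5-methylcytosine (M) and 5-hydroxymethylcytosine (H) on both strands of the same DNA fragment. Each read pair therefore gives a call of 1 of 9 states at a CpG, from CC (unmodified on both strands) to MM (methylated on both), and the states that differ only in which strand carries the mark are grouped as MC/CM, HC/CH and HM/MH.

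A processed pseudogene arises when the LINE-1 machinery reverse transcribes a cellular mRNA and inserts the copy at a new site, without introns and usually without the promoter of its source gene. Coding sequence often holds more CpGs than the bulk of the genome, and methylated cytosine tends to mutate to thymine over evolution, so the copies lose CpGs with age as CG becomes TG or, through the other strand, CA. In mESCs DNMT1 copies methylation to the new strand after replication, DNMT3A and DNMT3B add it, and TET enzymes oxidise methylcytosine to hydroxymethylcytosine.

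The sequences below show a young and an old copy of Gapdh, a glycolytic enzyme that was the best matching coding gene of 146 members, to show what this loss looks like. All are written 5′ to 3′ in the sense direction with every CpG in capitals. The first is positions 497 to 646 of a Gapdh coding transcript, within its coding part. The next is Gm11185 (chr4:83194575-83194724, plus strand, intergenic, 95.2% identity over its whole alignment), and the last is Gm17800 (chr19:24692655-24692804, minus strand, in an intron of Pgm5, 81.2% identity), both on GRCm38.p6.
Gapdh: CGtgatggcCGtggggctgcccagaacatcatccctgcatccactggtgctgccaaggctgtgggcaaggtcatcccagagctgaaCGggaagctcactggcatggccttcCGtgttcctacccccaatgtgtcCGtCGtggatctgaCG
Gm11185: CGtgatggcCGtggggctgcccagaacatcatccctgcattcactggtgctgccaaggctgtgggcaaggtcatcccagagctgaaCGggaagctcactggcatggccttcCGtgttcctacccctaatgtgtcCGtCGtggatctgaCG
Gm17800: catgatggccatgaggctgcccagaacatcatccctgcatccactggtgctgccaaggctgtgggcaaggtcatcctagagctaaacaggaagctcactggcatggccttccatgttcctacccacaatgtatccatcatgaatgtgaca
Gm11185 kept 7 of the 7 CpGs of this stretch. Gm17800 kept 0 of the 7, and CA stood at all 7 places. Over its whole alignment Gm11185 kept 16 of 28 transcript CpGs and Gm17800 kept 4 of 27. Both copies were mostly methylated on both strands. In Gm11185 the MM level was 63.0% in replicate 1 (54 calls at 6 sites) and 81.8% in replicate 2 (11 calls at 2 sites). In Gm17800 it was 59.2% (98 calls at 9 sites) and 76.7% (43 calls at 7 sites).

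The following 2 stretches are the 200 bases richest in CpGs of members on which later results turn, again in the sense direction with CpGs in capitals, on GRCm38.p6. E130201H02Rik (chr7:120597820-120598019, plus strand) lies in a member with CC of 86.3% and 75.8% in the 2 replicates. Gm11539 (chr11:96248758-96248957, plus strand) had the largest HC/CH difference from its flanks in replicate 1 among the 650 members with at least 10 sites in replicate 1 and 5 in replicate 2, inside and in the flanks.
E130201H02Rik: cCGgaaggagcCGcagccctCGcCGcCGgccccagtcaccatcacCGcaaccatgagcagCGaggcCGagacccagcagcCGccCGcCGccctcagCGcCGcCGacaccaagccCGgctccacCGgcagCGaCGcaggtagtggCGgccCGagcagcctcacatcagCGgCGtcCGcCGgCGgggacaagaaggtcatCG
Gm11539: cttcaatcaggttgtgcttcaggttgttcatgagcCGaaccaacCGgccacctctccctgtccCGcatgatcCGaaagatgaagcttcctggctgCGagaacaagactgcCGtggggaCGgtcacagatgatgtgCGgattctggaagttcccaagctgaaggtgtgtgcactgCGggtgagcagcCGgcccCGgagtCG
They hold 26 and 12 CpGs.

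Replicate 1 held 141159011 autosomal calls with a median of 10 calls a site, and replicate 2 held 31102023 with a median of 6. Inside the members, 50669 sites with 498780 calls were measured in replicate 1 and 17551 sites with 111941 calls in replicate 2. These sites cover 51.3% and 17.8% of the reference CpGs inside members, against 63.7% and 23.9% in the flanks, which are the stretches from 1 to 3 kb beyond either end. At least 1 site was measured in 7160 members in either replicate, and 385 members hold no reference CpG. A level is the summed calls of a state over the calls of all 9 states, in percent. The main readings below sum the calls of both replicates, so replicate 1 gives most of them.

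Calls inside members were MM more often than in their surroundings, and less often MC/CM or CC. The MC/CM difference ended when flanks were weighted to CpG density, as given below. Inside members, 60.1% of calls in replicate 1 and 63.4% of those in replicate 2 were MM (mean 61.8% ± 2.31, SD, n = 2), against 56.4% and 60.0% in the flanks. Both replicates were higher inside, and the difference was larger than its spread between replicates (3.57 ± 0.221 percentage points, SD, n = 2). With calls summed, MM was 60.7% inside and 57.1% in the flanks and was higher inside on 19 of 19 autosomes, with differences from 0.0698 points on chromosome 16 to 6.85 points on chromosome 13. An exact two-sided sign-flip permutation test over the 19 autosomes gave adjusted p = 1.1e-05 (Benjamini-Hochberg over 15 tests, 5 states in 3 sets of members). Autosomes share a library, so this test measures the spread over the genome and not over cultures.

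CC, the unmodified state, was 18.3% and 15.98% inside, against 21.4% and 18.8% in the flanks. It was lower inside on 17 of 19 autosomes by the summed calls (17.9% against 20.9%, exact permutation, adjusted p = 4.6e-05). Without sites within 1 kb of a coding start site the CC difference was -1.64 points in place of -3.003, with each pseudogene at equal weight it was -1.85, and both were called (exact permutation, adjusted p = 0.0011 and 3.8e-05). Hemimethylated CpGs (MC/CM), which have methylcytosine on 1 strand only, were at 12.1% and 13.5% inside against 13.9% and 15.02% in the flanks. The summed MC/CM level fell by 1.75 points from flank to inside, on 19 of 19 autosomes (exact permutation, adjusted p = 1.1e-05). With flanks weighted to the members' CpG density, as given below, the difference was 0.0815 points and was not called (exact permutation, adjusted p = 0.65).

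Over all sites pooled, both states with hydroxymethylcytosine on 1 strand were higher inside. The HC/CH difference was no longer called when flanks were weighted to CpG density. Within classes of CpG density, HC/CH was higher inside only in the densest, where the HM/MH gap was also widest, as given below. HC/CH was 4.36% and 3.99% inside against 3.95% and 3.59% in the flanks, a difference of 0.408 points in the summed calls on 16 of 19 autosomes (exact permutation, adjusted p = 0.00025). HM/MH was 4.53% and 2.91% inside against 3.92% and 2.39%, a difference of 0.589 points on 18 of 19 autosomes (exact permutation, adjusted p = 1.4e-05). The HM/MH level itself differed more between the replicates than between inside and flank. On the synthetic duplexes the state of a site was taken as the state called most often there. At the 2 sites taken as MM, an average of 2.26% of calls in replicate 1 read as HM and 2.26% as MH. In replicate 2 each was 0.233%, with the orientations averaged here. After each replicate was corrected with its own duplexes, HM/MH was 1.63% inside and 1.1855% in the flanks in replicate 1, and 2.55% and 2.04% in replicate 2. HH was at 0.479% inside and 0.392% in the flanks and was not tested, and 0.709% of MM calls on the duplexes of replicate 1 read as HH.

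**Figure D1:**
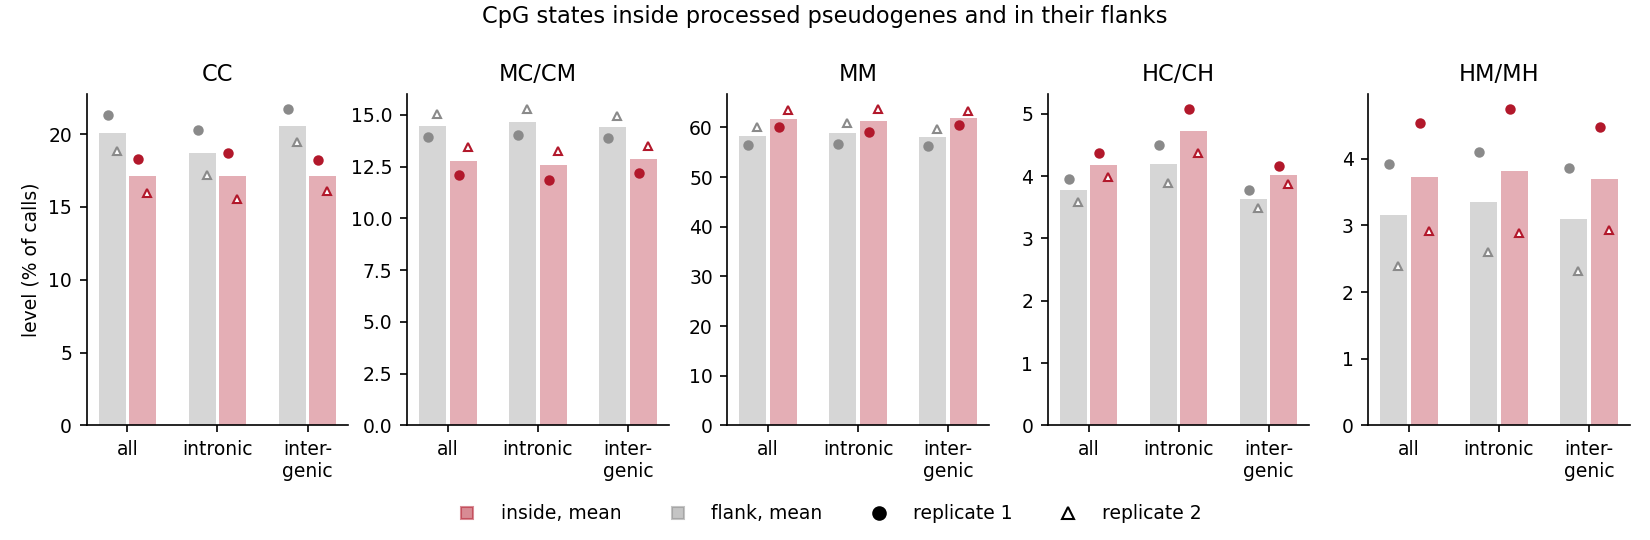
Level of each grouped CpG state in percent of calls, inside processed pseudogenes (red) and in their flanks (grey), for all, intronic and intergenic members. Bars are means of the 2 replicates and symbols are the replicates; in each replicate MM, HC/CH and HM/MH sit higher inside than in the flanks for all members, and CC and MC/CM sit lower.

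Members are denser in CpGs than their flanks, and the differences depended on this. A CpG inside a member had on average 4.74 other CpGs within 100 bp, against 2.90 in the flanks. When the flank levels were weighted to the members' distribution of CpG density, the differences in CC and MM grew. CC then fell by 7.95 points from the 25.8% of the reweighted flanks to inside, and MM was 7.23 points higher (exact permutation, adjusted p = 1.4e-05 for both). The top class of this weighting, 7 or more other CpGs, is open-ended. In it 28.0% of flank sites lay within 1 kb of a coding start site, against 0.646% inside. The reweighted flanks thus still differed from members in nearness to start sites, and weighting without those sites was not done. Under this weighting HM/MH stayed higher by 0.494 points (exact permutation, adjusted p = 2.1e-05), with its widest gap in the densest class, as given below. The calls for MC/CM and HC/CH ended: their differences became 0.08 and 0.0931 points (exact permutation, adjusted p = 0.65 for both). The weighted levels were not corrected for miscalls. On the duplexes replicate 1 read MM as HM at 2.26% and as MH at 2.26%, and MM was also higher inside. Weighting and miscall correction were not combined, so the share of miscalls in the weighted HM/MH difference was not tested.

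The difference was widest where CpGs were densest. At sites with 7 or more other CpGs within 100 bp, CC was 34.2% inside in replicate 1 and 34.1% in replicate 2. In the flanks CC at such sites was 59.6% and 62.2%, and over the rest of the autosomes it was 62.1% and 61.6%. MM at these sites was 46.8% and 46.9% inside against 28.5% and 26.6% in the flanks. Inside members the dense sites thus carried the methylated state more often than the unmodified one, while in the flanks and elsewhere the order was the opposite, in both replicates. Hydroxymethylated states behaved alike: HC/CH was 6.17% inside in each replicate against 3.78% and 3.58% in the flanks, and HM/MH was 5.13% and 4.21% against 2.98% and 2.07%. Tested after this pattern was seen, every one of the 5 states differed at the dense sites (exact permutation, adjusted p = 4.3e-05 for each), and MC/CM turned to higher inside, 7.22% against 4.74%. At sites with fewer than 7 other CpGs, MM stayed 4.62 points higher inside, and HC/CH differed by 0.129 points (exact permutation, adjusted p = 0.14). That HC/CH value pools sites of different density. Within each of the 4 classes under 7 HC/CH was lower inside than in the flanks, in both replicates: with summed calls it was 2.88% against 2.96% at 0 other CpGs, 3.30% against 3.53% at 1, 3.92% against 4.36% at 2 to 3 and 5.06% against 5.15% at 4 to 6. For HM/MH the summed values in these 4 classes were 3.19% against 3.14%, 3.48% against 3.49%, 4.16% against 3.96% and 4.88% against 4.31%. At 7 and over they were 4.96% against 2.81%. In replicate 2 HM/MH at 2 to 3 was lower inside, 2.65% against 2.75%. These single classes were not tested.

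Many dense flank sites lie at promoters of coding genes. Of the 7800 dense flank sites, 28.0% were within 1 kb of the start site of a protein-coding gene, against 0.646% of the 8204 dense sites inside members. Beyond 1 kb, CC at dense sites was 33.9% inside and 46.0% in the flanks, and MM was 47.0% and 38.3%. HC/CH was 6.19% and 4.94%, HM/MH 4.97% and 3.78%, and MC/CM 7.25% and 6.37%. The gaps of all 5 states at dense sites were thus smaller away from start sites, by over 1.5 times, and were not tested there. The direction for CC was kept in both replicates, with 34.0% against 45.6% in replicate 1 and 33.6% against 47.6% in replicate 2.

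**Figure D2:**
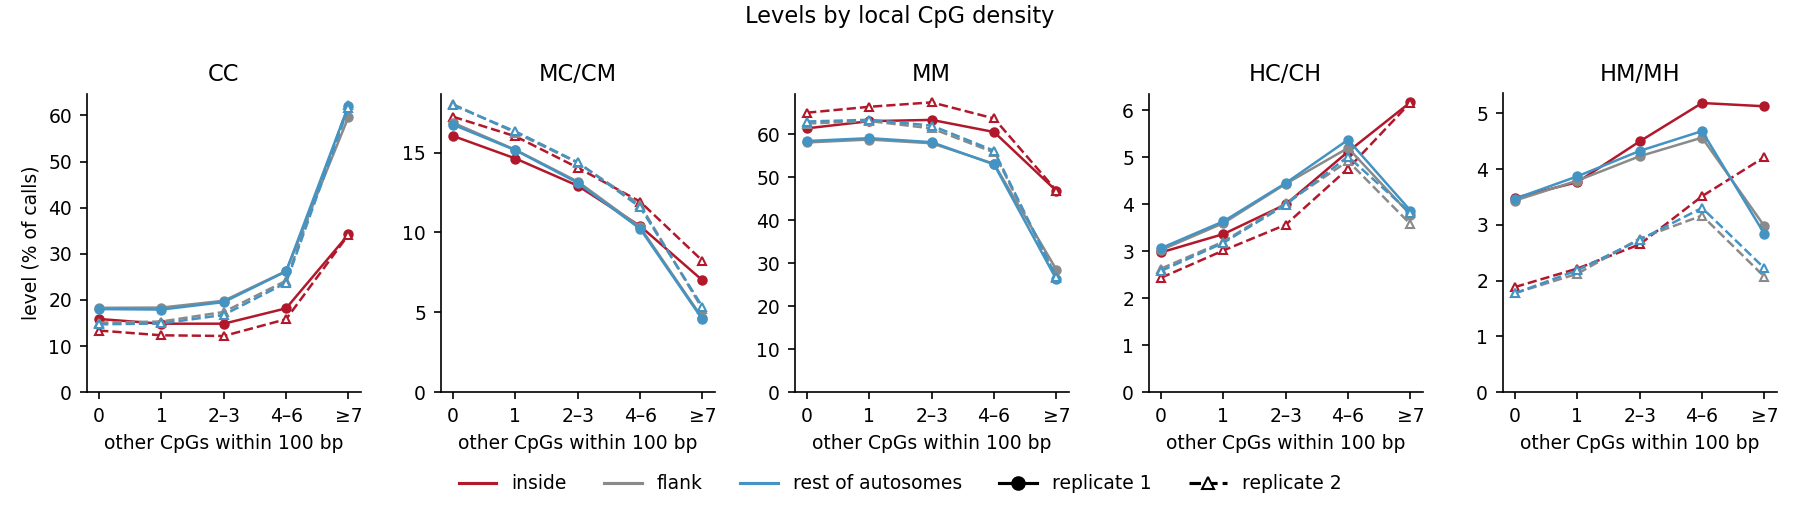
Level of each grouped CpG state in percent of calls (vertical axes) by the number of other reference CpGs within 100 bp (horizontal axes), inside processed pseudogenes (red), in their flanks (grey) and over the rest of the autosomes (blue); solid lines are replicate 1 and dashed lines replicate 2. At 7 and over, CC inside stays near 34% where flanks and rest reach about 60%, and HC/CH goes on rising inside while it falls elsewhere.

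The members were split by whether they lay in a host gene. In intronic members MM was 59.0% and 63.6% inside against 56.7% and 60.9% in their flanks, and in intergenic members 60.5% and 63.3% against 56.3% and 59.7%. In both sets MM and both hydroxymethylated states were higher inside and MC/CM lower, and the summed calls passed the test for all 5 states in each set. In replicate 2 alone intronic HM/MH was 0.275 points higher inside, on 13 of 19 autosomes, and was not called (exact permutation, adjusted p = 0.097). With flanks weighted to CpG density the calls for MC/CM ended at -0.241 points in intronic members and at 0.18, the opposite direction, in intergenic ones (exact permutation, adjusted p = 0.22 for both). Those for HC/CH ended at 0.149 and 0.0995 points (exact permutation, adjusted p = 0.76 and 0.65), and intronic HC/CH was also not called at sites covered in both replicates (0.428, exact permutation, adjusted p = 0.11). The CC difference was the weakest in intronic members, 18.1% against 19.7% (exact permutation, adjusted p = 0.035). It was not called without sites within 1 kb of a coding start site (exact permutation, adjusted p = 0.38), nor with each pseudogene at equal weight (exact permutation, adjusted p = 0.58), nor in replicate 2 alone (exact permutation, adjusted p = 0.051). HC/CH was 4.94% inside and 4.39% in the flanks of intronic members and 4.11% and 3.72% for intergenic ones, and these levels were not tested against each other.

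In the summed calls the difference between inside and flank did not pass a test for dependence on the host. It was 1.93 points less negative for CC in intronic than in intergenic members and 1.61 points smaller for MM (exact permutation, adjusted p = 0.14 for both). For HC/CH the differences were 0.551 and 0.393 points, and for HM/MH 0.577 and 0.601 (exact permutation, adjusted p = 0.40 and 0.51). In replicate 2 alone the HM/MH difference was -0.332 points, lower on 15 of 19 autosomes, and was called (exact permutation, adjusted p = 0.0019), while in replicate 1 it was 0.0425 (exact permutation, adjusted p = 0.76). When each pseudogene had equal weight, CC, MM and HC/CH did differ, by 2.08, -2.11 and 0.312 points (exact permutation, adjusted p = 0.0092, 0.003 and 0.04). Of the intronic members with hosts on 1 strand, 706 lay on the strand of the host and 1193 on the opposite strand. MM inside was 61.0% in the former and 59.1% in the latter, beside flanks at 58.7% and 56.8%.

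Along the members MC/CM changed near the annotated ends, while MM and CC already moved over the nearest 1 kb outside. In the sense direction MM climbed from 56.6% at 3 kb upstream to 59.0% at 400 to 600 bp upstream, was 57.8% in the last 200 bp and 59.5% in the first 10% of the body, and reached 61.8% at 80 to 90% of the length. Beyond the 3′ end it was 59.0% in the first 200 bp, 59.8% at 200 to 400 bp and 56.0% at 3 kb. MC/CM was near 14% outside on either side, 11.9% in the first 10% of the body and 12.9% in the last. It was already at 12.6% in the 200 bp before the annotated 5′ end, where HM/MH was 4.19%, close to the 4.30% of the first 10% of the body. CC had a local high of 20.6% in the same 200 bp. CC was lower toward the 3′ side, with 19.4% in the first 10% and 16.9% in the last. Outside it was 18.6% at 400 to 600 bp upstream and 17.5% at 200 to 400 bp downstream, both below the first 10% of the body. The rise of CC just before the 5′ end was in both replicates, from 16.6% to 18.5% over the last 400 bp in replicate 2.

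**Figure D3:**
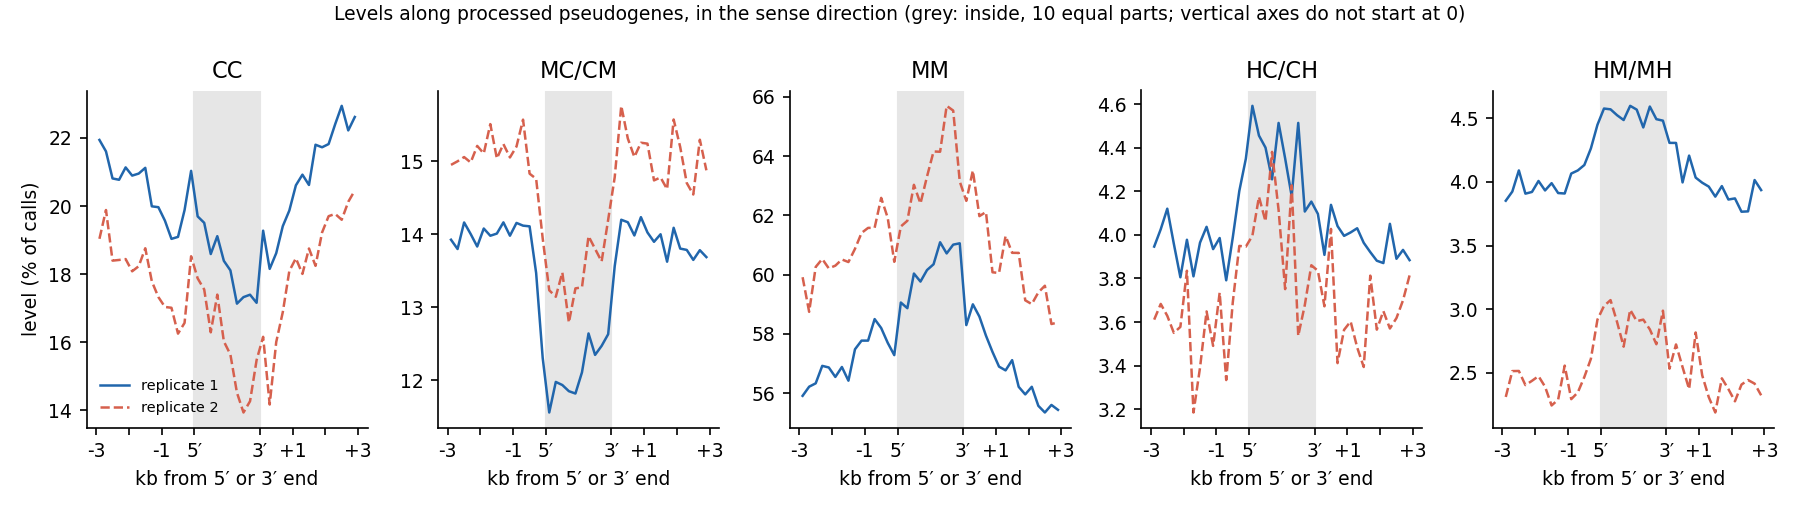
Level of each grouped CpG state in percent of calls along all processed pseudogenes, in 200 bp bins outside and in 10 equal parts inside (grey), 5′ to 3′, for replicate 1 (solid) and replicate 2 (dashed); the vertical axes do not start at 0. In the summed calls MC/CM drops near the annotated ends, from about 14% to 12%. MM rises from about 57% to 61%, in part over the nearest 1 kb outside.

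A-rich sequence, as a poly-A tail would leave, was seldom found at the annotated ends. A window of 20 bases with at least 16 A was found at or within 50 bases beyond the 3′ end of 207 members (2.35%), against 135 (1.53%) at the 5′ end. Among unprocessed pseudogenes, which arise by duplication of DNA, 11 of 1744 had one at the 3′ end (0.631%), and among transcribed processed pseudogenes 37 of 218 (16.97%). The median member is 546 bp long and holds 8 reference CpGs. Its median ratio of observed to expected CpGs was 0.24, against 0.123 in unprocessed pseudogenes.

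Processed pseudogenes were also compared with unprocessed ones held to the same exon rule. MC/CM differed without weighting but not with flanks weighted to CpG density. HM/MH differed both ways, and CC and MM differed with that weighting. From flank to inside, MC/CM fell by 1.75 points in processed pseudogenes, and the difference was -0.0484 points in unprocessed ones (difference -1.71, exact permutation, adjusted p = 0.00042 over 10 tests). HM/MH was raised by 0.589 points in processed and 0.202 in unprocessed pseudogenes (exact permutation, adjusted p = 0.025). Both held in each replicate alone. CC and MM did not differ between the classes without weighting, at 0.648 and 0.246 points (exact permutation, adjusted p = 0.93 and 0.55). From flank to inside, unprocessed pseudogenes had -3.65 points in CC and 3.43 in MM. With flanks weighted to CpG density, the MC/CM difference was -0.176 (exact permutation, adjusted p = 0.68). Those of CC and MM were then -3.97 and 3.67 points (exact permutation, adjusted p = 0.00038 and 0.00072), so CC turned direction. HM/MH stayed called at 0.322 points (exact permutation, adjusted p = 0.025), in levels not corrected for miscalls. The 218 transcribed processed pseudogenes, copies with evidence of RNA, had MC/CM 0.566 points higher inside than in their flanks (difference -2.32, exact permutation, adjusted p = 0.0084). That last difference was not called in replicate 2 alone (-2.09, exact permutation, adjusted p = 0.25), nor with flanks weighted to density (-0.168, exact permutation, adjusted p = 0.68). The annotated spans compared are unlike in length, with medians of 2655 bp in transcribed processed, 1292 bp in unprocessed and 546 bp in processed pseudogenes. A CpG inside transcribed processed ones had on average 3.394 other CpGs within 100 bp, against 3.397 in their flanks.

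The loss of CpGs since insertion was inferred from alignments to present-day coding transcripts. A match was found for 7810 members, and 985 had none. The genes matched most often were Rpl7a, a protein of the large ribosomal subunit, with 152 members, Gapdh with 146, Rps2, of the small subunit, with 127, and Rpl29 with 112. The best matching transcript need not be the source, and a CpG gained in the coding gene would also count here as lost. Of 131299 transcript CpGs in these alignments, members kept 54567 (41.6%), while 29533 (22.5%) were TG and 25707 (19.6%) were CA. Members under 85% identity kept 12.4% of them, those from 85 to 95% kept 39.9% and those at 95% or more kept 80.4%. The share kept partly restates identity, since lost CpGs are mismatches.

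High-identity members were the least covered. In replicate 1, 70.5% of reference CpGs had a site in members under 85% identity, 57.9% from 85 to 95% and 32.2% at 95% or more, and in replicate 2 the shares were 27.7%, 19.7% and 9.35%. The flanks of the same members were covered at 66.4%, 63.9% and 61.6% in replicate 1. How reads of a copy and of its source were divided cannot be told apart in these files, so the values of the last class rest on a part of its CpGs.

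The inside minus flank differences of CC, MC/CM, HC/CH and HM/MH passed the test between identity classes, and that of MM did not. HM/MH is the state whose call and direction also held with flanks weighted to CpG density, in levels not corrected for miscalls. MC/CM was 13.6% inside members under 85% identity, 12.04% from 85 to 95% and 10.5% at 95% or more, with flanks at 14.4%, 14.2% and 13.6%. HC/CH was 3.96%, 4.29% and 5.06% in the same order, with flanks at 3.79%, 3.85% and 4.12%. The inside minus flank difference was 2.39 points more negative for MC/CM at 95% or more than under 85% (exact permutation, adjusted p = 1.9e-05 over 5 tests). It was 0.777 points larger for HC/CH and 0.742 for HM/MH (exact permutation, adjusted p = 0.00084 and 0.0038). For MM, at 60.8%, 61.3% and 58.4% inside, the difference was -1.17 points (exact permutation, adjusted p = 0.13). For CC it was 1.91 points less negative (exact permutation, adjusted p = 0.043), and this was not called in either replicate alone, at 1.66 and 2.59 points (exact permutation, adjusted p = 0.07 and 0.12). With at least 10 calls a site it was 0.0928 points and the MM difference turned to 0.356 (exact permutation, adjusted p = 0.87 for both). In replicate 2 alone the HC/CH and HM/MH differences were 0.699 and 0.438 points and were not called (exact permutation, adjusted p = 0.12 and 0.18). CpG density moves with identity, at 3.06 other CpGs within 100 bp under 85% and 6.54 at 95% or more. With flanks weighted to density CC turned to -7.87 points and MM to 5.82 (exact permutation, adjusted p = 0.0043 for both). MC/CM then turned from -2.39 to 0.544 points and was not called (exact permutation, adjusted p = 0.18). HC/CH was 0.579 points and was not called (exact permutation, adjusted p = 0.11), and HM/MH stayed called at 0.828 (exact permutation, adjusted p = 0.02). Members under 85% identity alone had MM 3.35 points higher inside (exact permutation, adjusted p = 0.00023), close to the value of all members.

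**Figure D4:**
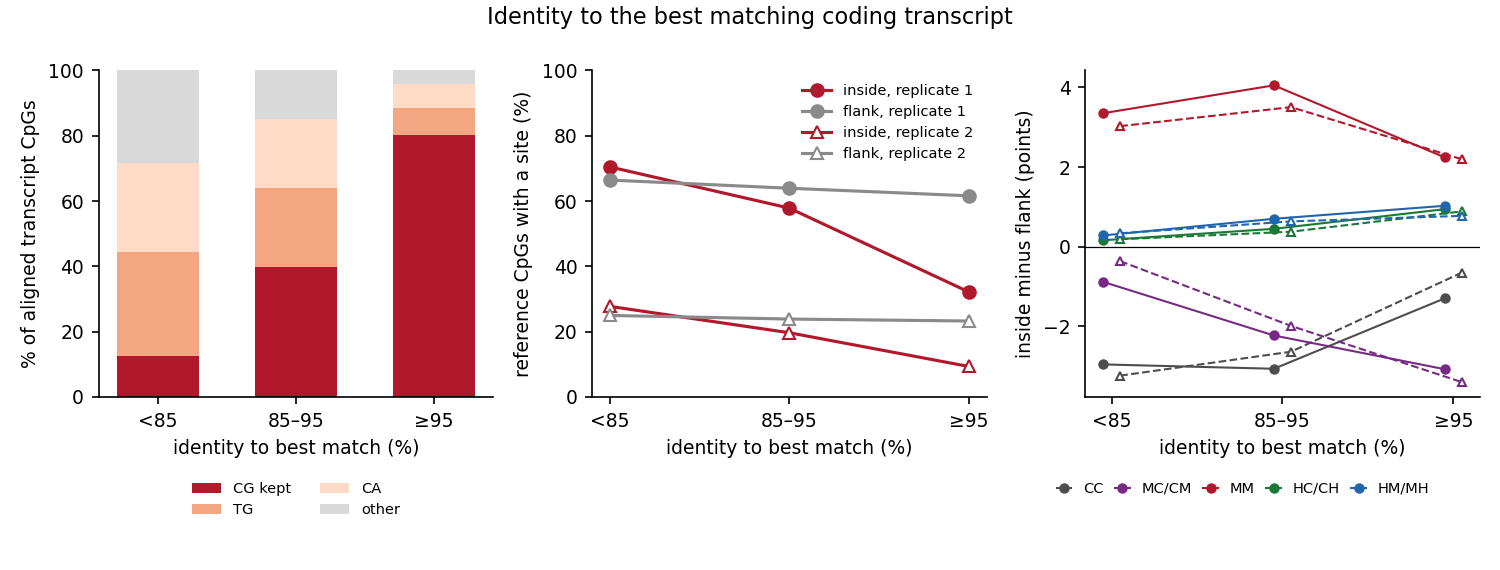
Processed pseudogenes by identity to their best matching coding transcript: percent of transcript CpGs kept or found as TG or CA (left), percent of reference CpGs with a measured site (middle) and inside minus flank difference in percentage points for each grouped state (right; solid symbols replicate 1, open symbols replicate 2). Kept CpGs rise from 12.4% to 80.4% while covered CpGs inside fall from 70.5% to 32.2% in replicate 1, and MC/CM differences move away from 0.

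Marks on the sense and the antisense strand of the copy were about equally frequent. MC/CM calls with the methylcytosine on the sense strand made 6.17% of calls and those with it on the antisense strand 6.19%. The matching values were 2.15% and 2.14% for hydroxymethylcytosine opposite C and 2.12% and 2.11% opposite M. None of the 3 passed the exact permutation test (adjusted p of 0.84 to 0.86), 0 of 3 had an unadjusted p under 0.05, and in replicate 2 alone the largest difference was -0.268 points.

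Single members ranged widely. The 650 members with at least 10 sites in replicate 1 and 5 in replicate 2, inside and in the flanks, had CC levels from 0.714% to 100% in replicate 1, with quartiles of 8%, 13.8% and 28.5%. In replicate 2 the quartiles were 4.10%, 9.89% and 24.5%. MM had quartiles of 48.1%, 62.1% and 69.8% in replicate 1 and of 50.0%, 66.7% and 76.5% in replicate 2. Across these members the inside minus flank difference of CC had Pearson's r = 0.869 between replicates, that of MM 0.768, HC/CH 0.357, MC/CM 0.275 and HM/MH 0.182. The points share a library within each axis, and levels of rarer states rest on few calls. MM was over 50% in both replicates in 436 of the 650 (67.1%) and CC in 55 (8.46%). Of these 55 CC members, 3 (5.45%) lay within 1 kb of a coding start site and 9 were intronic, against 5 (1.15%) and 111 of the 436. The median ratio of observed to expected CpGs was 0.543 in the 55 and 0.30 in the 436.

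Fisher's exact test on calls, run for every autosomal gene with at least 20 calls inside and 20 in its flanks, gave the members that differed from their own flanks (called at adjusted p under 0.05 over all genes tested, for each state). It covers counting error only, since CpGs of 1 read pair are not independent. In replicate 1, 5816 members were tested among 40126 genes. MM was higher inside in 1073 members (18.4%), against 20.2% of all genes, and lower in 668 (11.5%), against 25.9%. CC was lower inside in 1256 members (21.6%), against 22.4% of all genes, and higher in 811 (13.9%), against 32.1%. Members are shorter than most genes and hold fewer calls, so shares at the background level are no result about them. Of the 1256 with lower CC, 439 could be tested in replicate 2, where 391 had the same direction and 175 were called. Of the 1073 with higher MM, 396 could be tested and 329 had the same direction and 124 were called.

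HC/CH was higher inside in 145 members (2.49%, against 2.5% of all genes) and lower in 17 (0.292%, against 4.28%). HM/MH was higher in 90 (1.55%, against 1.54%) and lower in 5 (0.086%, against 2.47%). Flank levels of HC/CH and HM/MH were low, at 3.95% and 3.92% in replicate 1, and members held few calls. A lower level inside could then seldom be called, so the counts by direction are no result about the members. MC/CM was lower in 364 (6.26%, against 11.4%) and higher in 137 (2.36%, against 5.44%). Replicate 2 had the direction of replicate 1 in 53 of 66 members with higher HC/CH, 24 of 34 with higher HM/MH and 140 of 189 with lower MC/CM, and called 2, 0 and 9 of them.

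The largest CC differences toward higher inside belonged to copies that were mostly unmodified within methylated surroundings. These members were chosen on replicate 1, whose values are a description, and replicate 2 is the independent measure. E130201H02Rik (chr7:120597625-120598475, intergenic) best matched Ybx1, a cold shock domain protein that binds RNA and DNA, at 93.4% identity, and holds 43 CpGs. Its CC level was 86.3% inside and 5.17% in the flanks in replicate 1, and 75.8% and 3.39% in replicate 2 (Fisher's exact test, adjusted p = 2.7e-12). The nearest coding start site, of Uqcrc2, is 36701 bp away. Gm18246 (chr12:40917288-40918015), best matching Zfp511 at 82.6%, had 82.9% against 8.77% and then 80.6% against 2.47%, with 10 reference CpGs only. Mospd4 on chromosome 18, best matching Vapa at 74.4%, had 96.4% against 12.01% and then 94.6% against 6.45%. Oaz1-ps (chr17:17345456-17346140) had 87.3% against 11.1% and then 70.5% against 2.94%. Oaz1-ps is 99.7% identical to Oaz1, which encodes ornithine decarboxylase antizyme, and only 10 of its 34 CpGs had a site in replicate 1. How reads were divided between Oaz1-ps and Oaz1 cannot be told in either replicate. All 4 were called in replicate 2.

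Among the largest MM differences toward higher inside were those of methylated copies beside unmodified DNA. Gm13886 (chr2:104820179-104821361), best matching Tardbp, an RNA-binding protein, lies 3419 bp from the start of Qser1. Its MM was 65.4% against 13.3% and then 70.8% against 15.9% (Fisher's exact test, adjusted p = 1.5e-15), while CC in its flanks was 79.5% and 72.0%. Gm12093, 3112 bp from the start of Rtn4, had 61.6% against 16.6% and then 77.8% against 28.3%. Gm16228, best matching the ribosomal protein gene Rpsa at 74.5% identity in an intron of Rasgef1b, had 70.4% against 25.3% and then 75.9% against 27.8%. These 3 were called in replicate 2 as well.

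The hydroxymethylated states were less repeatable in single members. Gm11539 (chr11:96248633-96249189), best matching the ribosomal protein gene Rpl18 at 96.8% identity and 22268 bp from the start of Hoxb9, had HC/CH of 18.5% inside against 2.21% in the flanks in replicate 1. In replicate 2 it had 18.6% against 2.34% (Fisher's exact test, adjusted p = 0.046). Its CC was 19.6% and 40.7% inside against 70.8% and 81.2%. Only 14 of its 26 CpGs had a site in replicate 1, and 8 had one in replicate 2. How reads were divided between Gm11539 and Rpl18 cannot be told in either replicate. AC154187.2, best matching Rpl7a, had HC/CH of 16.2% against 4.93% and then 11.3% against 1.59%, and Gm14274, best matching Naa10, had 16.4% against 4.05% and then 9.38% against 5.45%. Gm49351 had 16.5% against 3.23% in replicate 1 and 1.89% against 2.5% in replicate 2. Of the 4 chosen for HC/CH, 3 kept their direction in replicate 2 and 1 was called.

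For HM/MH the choice fell on Gm11539 again, Gm19840 in an intron of Cdh18, Gm8200 and Gm16581, whose differences in replicate 1 were between 11.1 and 14.3 points. In replicate 2 they were 2.61, 2.08, -1.54 and 2.82 points and 0 of 4 were called. For MC/CM it fell on Gm13784 in an intron of Acacb, Gm47678, Gm13013 and Gm9194, with 13.2 to 14.2 points in replicate 1. These run opposite to the members as a set, and the lowest MC/CM difference of the 650 was -21.0 points. In replicate 2 the differences were -1.17, 17.9, 7.02 and -7.80 points and 0 of 4 were called. Gm13013, best matching Rpl17, and Gm9194 lay in flanks with much unmodified DNA, at CC of 77.8% and 45.7% in replicate 1.

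**Figure D5:**
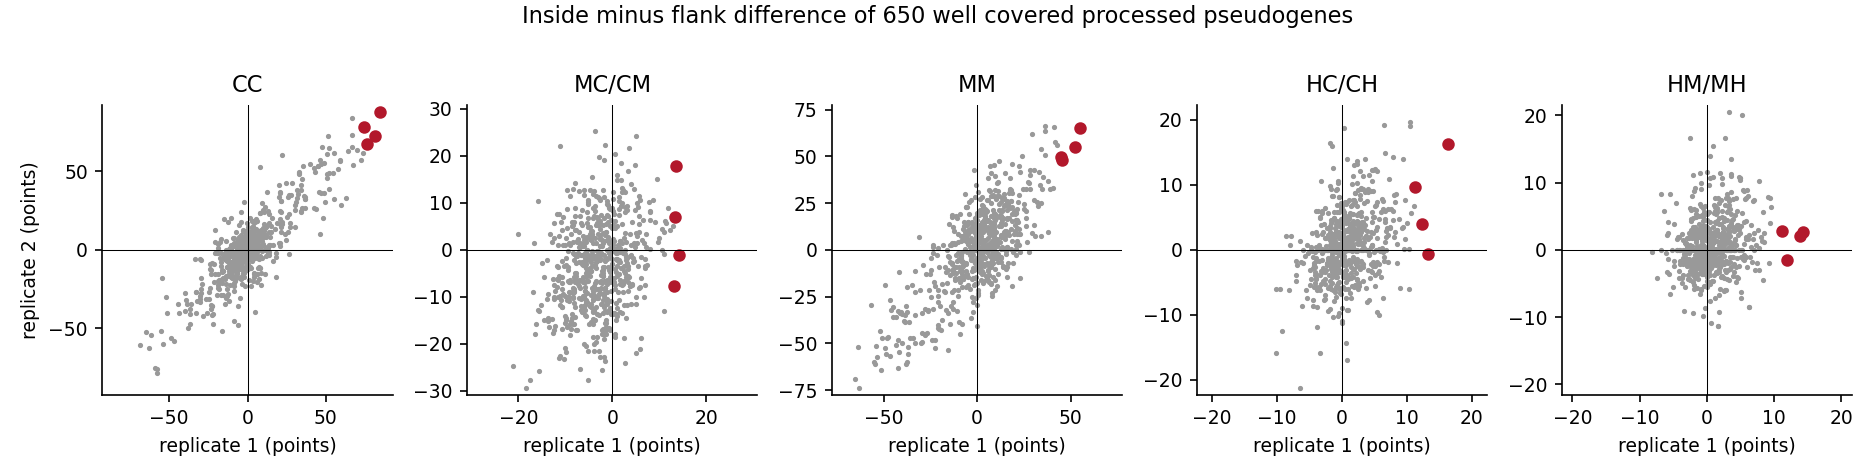
Inside minus flank difference in percentage points of 650 processed pseudogenes in replicate 1 (horizontal axes) and replicate 2 (vertical axes), for each grouped state; red points are the 4 members with the largest difference toward higher inside in replicate 1. Red points for CC and MM lie at high values in replicate 2 too, at 67.5 points or more and at 48.0 points or more, while those for MC/CM lie between -7.80 and 17.9 and those for HM/MH between -1.54 and 2.82.

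By the best matching gene, the copies of different gene groups differed in level, which is given here as pooled calls without a test. Copies of ribosomal protein genes, the largest group with 2038 members, had MM of 60.5% inside and 55.7% in their flanks, and HC/CH of 4.97% and 4.28%. The 229 copies of glycolytic genes had the highest MM of the 11 groups, 68.4% against 59.4%, and the lowest CC, 11.3% against 18.3%. Their MM was 67.6% against 58.5% in replicate 1 and 71.9% against 63.1% in replicate 2. Copies of cytoskeletal genes (98 members, 67.1% MM inside), translation factors (154, 64.9%), RNA binding and splicing genes (167, 64.7%) and the cyclophilin Ppia (72, 64.3%) lay above the 60.7% of all members. Ubiquitin and proteasome genes (159 members) were at 60.7%, respiratory chain genes (225) at 58.6% and pluripotency genes such as Pou5f1 and Nanog (38) at 57.8%. In the pluripotency copies MM was 58.3% against 54.6% in replicate 1 and 55.8% against 58.1% in replicate 2, so the direction was not kept. Copies of chromatin genes (228 members) had MM of 54.5% inside and 57.6% in the flanks, with CC at 25.1% against 19.9956%. MM in the chromatin copies was 53.4% against 57.04% in replicate 1 and 59.8% against 60.0% in replicate 2, so the gap was near 0 in the latter. The 25 ferritin copies had MM of 51.8% against 59.0% in replicate 1 (910 calls) and of 66.5% against 61.0% in replicate 2 (245 calls), so their direction was not kept. The direction of HC/CH varied by group. In the summed calls it was lower inside for glycolytic, cytoskeletal, translation factor, RNA binding and splicing, and Ppia copies. The level was 3.11% against 3.53% for the glycolytic copies and 3.68% against 4.38% for Ppia. In the other groups HC/CH was higher inside.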

How the data were processed

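The authors selected read pairs by their adapter configuration, aligned inserts to GRCm38 (mm10) with BSBolt, removed duplicates and called a CpG state per read pair; the submitters' processing notes name cutadapt 4.6 and Picard 3.1.1. They deposited, per replicate, the counts of calls of each state and the depth at each CpG with at least 5 calls outside blacklisted regions and not marked by repeated calling errors, and the percent of each state, which equals its count over the depth. Summed counts were used here. All deposited autosomal positions fell on a reference CpG.

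Flank sites in members or in coding exons were dropped. Members were aligned to coding transcripts with blastn 2.17.0 (discontiguous megablast, E-value 1e-10, at least 100 aligned bases). Miscalls were corrected by solving 9 linear equations with each replicate's duplexes, with negative values set to 0. No duplex site was taken as MH, so the MH rates mirrored those of HM. Sign-flip and Fisher's exact tests (SciPy 1.17.1) were two-sided, with a threshold of 0.05, and were tested on simulated data; the smallest sign-flip p over 19 autosomes is 3.8e-06. Members named singly were the 4 with the largest positive inside minus flank difference in replicate 1 for each of 5 states, among those with at least 10 sites in replicate 1 and 5 in replicate 2 inside and in the flanks. Members and lists were chosen with earlier results of these data known. With 1 condition, no test between samples exists. Alternatives changed the minimum of calls, the flank, the weighting of sites, the sites near start sites, the CpG density of flanks, the miscall correction and the replicates used. The member with the largest MM difference is not reported here.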

Additional observations from a re-analysis of the deposited data

Results flagged for a closer look

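Of the differences between classes of pseudogene, 7 passed the exact permutation test over autosomes in the summed calls. In inside minus flank difference, processed pseudogenes differed from transcribed processed ones by -2.32 points in MC/CM, and from unprocessed ones by -1.71 points in MC/CM and by 0.387 points in HM/MH. Members at 95% identity or more differed from those under 85% by 1.91 points in CC, by -2.39 in MC/CM, by 0.777 in HC/CH and by 0.742 in HM/MH. With flanks weighted to CpG density these became -0.168, -0.176 and 0.322 for the former 3, and -7.87, 0.544, 0.579 and 0.828 for the latter 4. Under that weighting both MC/CM differences between classes were no longer called, nor were MC/CM and HC/CH by identity (exact permutation, adjusted p = 0.68 for both, then 0.18 and 0.11), and CC by identity turned direction. In replicate 1 alone CC by identity was not called, nor in replicate 2 alone (exact permutation, adjusted p = 0.07 and 0.12).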

How the results depend on the processing

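For all members, the directions and calls of CC, MM and HM/MH held under all 11 other settings, which exclude those chosen after seeing the data, with differences of -7.95 to -1.64, 2.64 to 7.23 and 0.462 to 0.645 points. Each setting was applied alone, so density weighting and miscall correction were not combined. With flanks weighted to CpG density, MC/CM became 0.0815 and HC/CH 0.0931 points; intronic MC/CM became -0.241 and HC/CH 0.149, and intergenic MC/CM 0.18 and HC/CH 0.0995. Against transcribed processed pseudogenes CC then was -3.42, MC/CM -0.168 and MM 2.75, and against unprocessed ones -3.97, -0.176 and 3.67. Without weighting CC and MM were 2.15 and -1.25 against the former and 0.648 and 0.246 against the latter, and none was called (exact permutation, adjusted p from 0.55 to 0.93). The weighting thus turned CC against both classes and MM against transcribed processed ones. For high against low identity CC was -7.87, MC/CM 0.544, MM 5.82 and HC/CH 0.579. Alternatives chosen after seeing the data gave MC/CM of 2.48 at sites with 7 or more other CpGs, HC/CH of 0.129 at sites with fewer, and HC/CH of 0.162 in members under 85% identity.

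Intronic CC was not called as a mean of site percentages (-1.28), with equal weight per pseudogene (-0.245) or without sites near start sites (-0.458), nor was intronic HC/CH at sites covered in both replicates (0.428). With equal weight, intronic minus intergenic differences were 2.08 in CC, -2.11 in MM, 0.312 in HC/CH and 0.0908 in HM/MH; HM/MH was 0.12 at 10 or more calls a site and 0.0433 after correction. At 10 or more calls a site, processed minus unprocessed HM/MH was 0.292, identity differences were 0.0928 in CC, 0.356 in MM and 0.644 in HM/MH, and sense minus antisense was -0.0428 in HC/CH and -0.0578 in HM/MH. Of 4335 members then tested, those called numbered 61 and 159 for MC/CM higher and lower (1.41% and 3.67%, against 4.11% and 6.67% of all genes), 706 for MM higher (16.3% against 19.5%), 67 and 5 for HC/CH (1.55% and 0.115% against 1.3% and 2.06%), and 22 and 0 for HM/MH (0.507% and 0% against 0.496% and 0.736%). With at least 50 calls a gene, 91 of 3597 had higher MC/CM (2.53% against 6.01%). The causes of these changes were not tested, and the stricter minimums also left fewer calls.

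With either replicate left out, values ranged from -1.60 to -1.54 for intronic CC and from 0.275 to 0.648 for intronic HM/MH. For intronic minus intergenic HM/MH they ranged from -0.332 to 0.0425, and replicate 2 alone was called. They ranged from -2.38 to -2.09 for MC/CM against transcribed processed pseudogenes, and from -1.05 to 0.515 for MM against unprocessed ones. By identity they ranged from 1.66 to 2.59 in CC, 0.699 to 0.78 in HC/CH and 0.438 to 0.745 in HM/MH. Sense minus antisense ranged from -0.268 to 0.0377 in MC/CM, -0.00522 to 0.0903 in HC/CH and -0.00722 to 0.0581 in HM/MH. Members called ranged over the replicates, in the order higher and lower inside, from 204 to 811 and 233 to 1256 for CC, 8 to 137 and 21 to 364 for MC/CM, 197 to 1073 and 162 to 668 for MM, 3 to 145 and 0 to 17 for HC/CH, and 0 to 90 and 0 to 5 for HM/MH. Of 1734 members tested in replicate 2, the shares called in the same order were 11.8% and 13.4% for CC (24.3% and 17.2% of all genes), 0.461% and 1.21% for MC/CM (1.21% and 2.76%), 11.4% and 9.34% for MM (14.6% and 17.9%), 0.173% and 0% for HC/CH (0.0972% and 0.507%), and 0% for HM/MH both ways (0.00347% and 0.0833%). In replicate 2 Gm13784 had -1.17, Gm9194 -7.80, Gm49351 -0.613 and Gm8200 -1.54 points. Inside and flank are paired within each replicate, and no replicate number could pair samples of different groups, since there is 1 group.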
